A study of Mus musculus with 6 samples.

Results

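The sarcolemma ion pump and excitability genes examined here are 8 genes whose products set the sodium, potassium and chloride gradients and conductances of the muscle fibre surface membrane. They are Atp1b1, Atp1b2 and Fxyd1 of the sodium-potassium pump, the sodium channel gene Scn4a, the chloride channel gene Clcn1, the ATP-sensitive potassium channel genes Kcnj11 and Abcc9, and the inward rectifier gene Kcnj2. They were taken by gene symbol from the deposited isoform table, and all 8 were found, as 50 of its 105129 transcript rows and 8 of its 33641 gene symbols. The table covers poly-A RNA of quadriceps muscle, a thigh muscle made mostly of fast fibres, from 6 male mice aged 4 months. In 3 mice both copies of the glucocorticoid receptor gene Nr3c1 carried the rs6190 allele, which copies a human variant (homozygous mice). The other 3 mice carried the reference allele on both copies (WT). All were littermates bred from heterozygous mice, and muscle was taken about 4 hours after lights on (ZT4).

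The sodium-potassium pump exports sodium and imports potassium after each action potential. Its alpha subunit carries out transport, its beta subunit brings the alpha subunit to the membrane, and FXYD proteins tune its affinity and rate. The fibre action potential is carried by the sodium channel Nav1.4, while the chloride channel ClC-1 and the inward rectifier Kir2.1 hold the membrane near its resting potential. The ATP-sensitive potassium channel, built from Kir6 pores and sulphonylurea receptors, opens when cellular ATP falls. In rodent muscle the beta1 subunit is known as the main form of oxidative fibres and the beta2 subunit as the main form of fast glycolytic fibres.

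The libraries differed in make-up within groups, which touches every value below. WT replicate 3 stood apart. It lay at 52.7 on the first principal component, which held 54.7% of the variance, against -27.8 to 3.90 for the other 5 libraries. Its 11 fast-fibre marker genes summed to 200495 TPM (transcript abundance per length, scaled to the same total in each library), against 84456 to 113883 TPM in the others. Of these 11 genes, 2 lay higher in all homozygous libraries and 0 lay lower. They were Myh1 (942 to 1253 TPM in homozygous against 239 to 464 TPM in WT libraries) and Myh2 (478 to 728 against 122 to 361 TPM). The 10 slow-fibre marker genes summed to 1901 to 9702 TPM in homozygous against 245 to 1737 TPM in WT libraries, and 7 of the 10 lay higher in all homozygous libraries. The 6 Schwann cell markers summed to 29.1 to 106 TPM against 16.2 to 25.3 TPM, with all 6 higher in all homozygous libraries. The 7 smooth muscle and pericyte markers summed to 84.8 to 95.5 TPM against 62.9 to 83.5 TPM (4 of 7 higher), and the 6 endothelial markers to 43.3 to 51.1 TPM against 33.9 to 47.7 TPM (1 of 6 higher). The summed levels of the skeletal muscle fibre, fibroblast, immune, adipocyte and blood lists overlapped between groups, and no marker of the 10 lists was at 0 in any library. Transcripts above 0 numbered 49277 to 51099 in homozygous and 43986 to 48546 in WT libraries, with WT replicate 3 lowest. Mitochondrially encoded transcripts held 20.9% to 27.3% of the TPM in homozygous and 14.3% to 33.9% in WT libraries. The part of these differences in the results was not tested beyond the fits with a slow-fibre score and without WT replicate 3. In bulk tissue, more cells of a type and more RNA per cell cannot be told apart. Nr3c1 itself was 20.01, 19.7 and 19.5 TPM in homozygous mice 1 to 3, against 11.5, 14.8 and 8.07 TPM in WT mice 1 to 3, and TPM does not tell its alleles apart.

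None of the 8 genes passed the test. In limma, on log2(TPM + 1) with adjustment over all 11099 genes tested, 0 of 8 had an adjusted p under 0.05, as did 0 of all genes (0.0%). All 8 were above 1 TPM in every library and entered the test. The values of 4 genes (Atp1b1, Scn4a, Kcnj11 and Abcc9) lay above the WT range in all homozygous libraries, as did 34.7% of all genes tested. The same 4 genes had an unadjusted p under 0.05 in limma, all of them higher, against 23.7% of all genes higher and 0.55% lower. The WT libraries lay above for 0 of the 8, against 0.73% of all genes. The median log2 fold change (homozygous minus WT) was 0.49 for the 8 genes and 0.26 for all genes, so that folds are also given relative to that shift. It was 0.20 for the 8 and -0.01 for all genes after quantile normalization, and then 1 of the 8 was higher (Atp1b1) and 1 lower (Atp1b2) at an unadjusted p under 0.05 in limma, against 4.54% and 4.34% of all genes. With the slow-fibre covariate 0 of 8 were, against 5.23% of all genes higher and 0.55% lower. The 8 genes were chosen with earlier results of these data known, so their counts beside those of all genes are only a description. The labels do not say which mice shared a litter, and p-values measure only the spread between these samples.

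**Figure D1:**
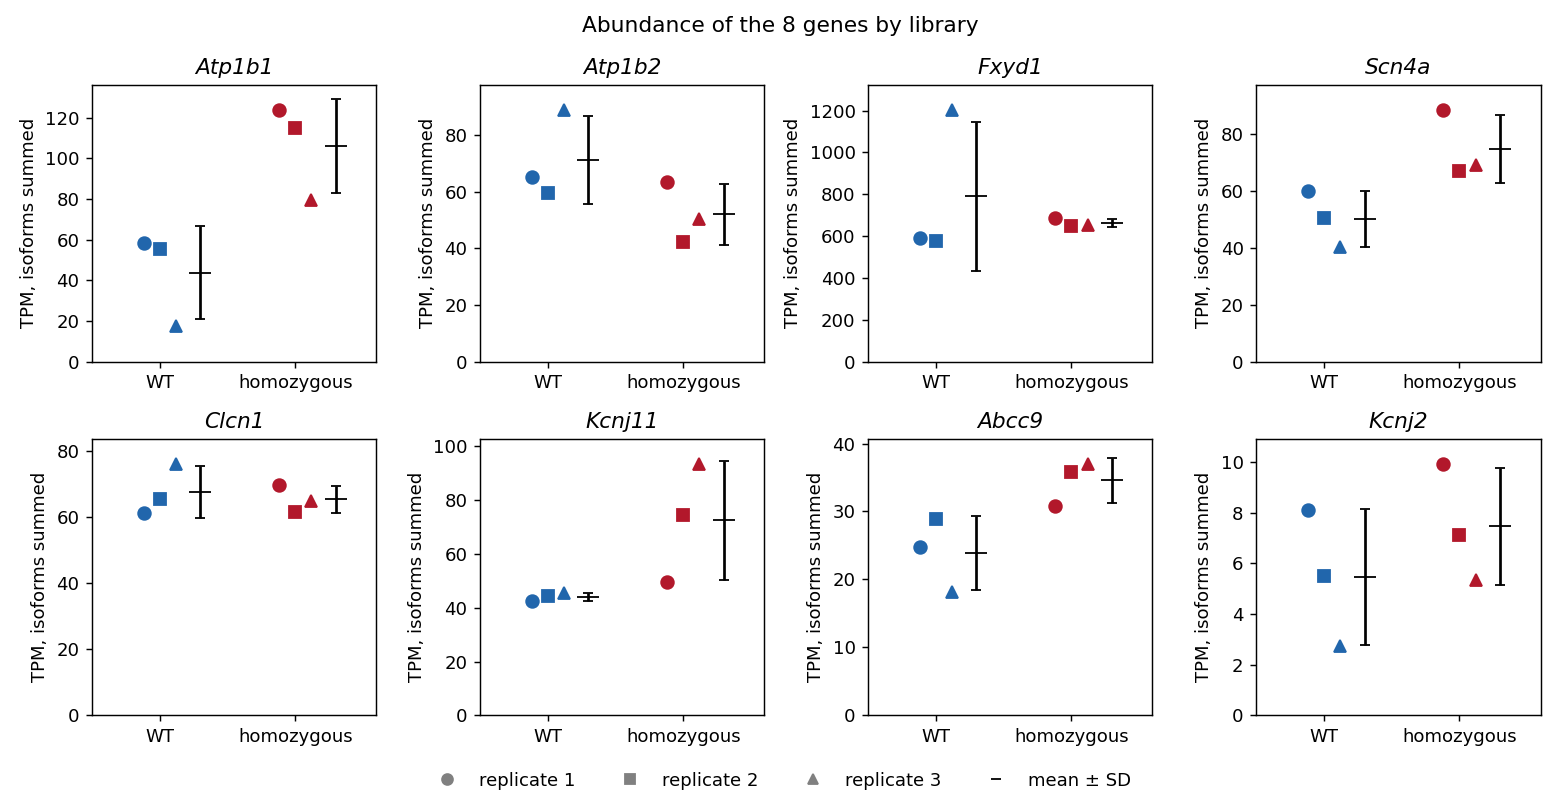
TPM summed over isoforms (y axis, linear from 0) for each of the 8 genes in the WT and homozygous libraries, with 1 symbol per replicate and the mean ± SD beside each group. Atp1b1, Scn4a, Kcnj11 and Abcc9 do not overlap between groups, and WT replicate 3 (triangle) is the lowest WT library for Atp1b1, Scn4a, Abcc9 and Kcnj2 and the highest for Atp1b2, Fxyd1, Clcn1 and Kcnj11.

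The pump gene Atp1b1 had the largest fold of the 8 genes. Atp1b1 (chromosome 1, 164437109 to 164458355, minus strand, GRCm38) encodes the beta1 subunit. Its abundance was 124, 115 and 79.7 TPM in homozygous replicates 1 to 3 and 58.5, 55.4 and 17.7 TPM in WT replicates 1 to 3. The groups did not overlap, and WT replicate 3 was the lowest library. Homozygous muscle averaged 106 ± 23.2 TPM and WT muscle 43.9 ± 22.7 TPM (SD, n = 3 per group). This gave a log2 fold change of 1.41 (SE 0.44) at an adjusted p of 0.168 in limma, or 1.14 above the median of all genes. Without WT replicate 3 it was 0.86 (SE 0.19), and with a slow-fibre score as covariate it was 0.57 (SE 0.41; limma, adjusted p 0.762).

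Atp1b2 (chromosome 11, 69599736 to 69605942, minus strand), the gene of the beta2 subunit, had lower values in the homozygous libraries. It was 63.4, 42.3 and 50.4 TPM in homozygous mice 1 to 3, against 65.3, 59.5 and 88.8 TPM in WT mice 1 to 3. Homozygous replicate 1 lay within the WT range, so the groups overlapped. The log2 fold change was -0.44 (SE 0.20; limma, adjusted p 0.218), or -0.71 relative to all genes. It was -0.28 (SE 0.17) without WT replicate 3 and -0.05 (SE 0.18) with the slow-fibre covariate. The coding isoform Atp1b2-201 held 85.2% to 88.6% of the gene in homozygous and 86.2% to 93.9% in WT libraries, and the processed transcript Atp1b2-202 held most of the rest.

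The proportion of the pair did not overlap between groups. Atp1b1 made up 66.1%, 73.1% and 61.3% of the summed Atp1b1 and Atp1b2 TPM in homozygous mice 1 to 3, against 47.3%, 48.2% and 16.6% in WT mice 1 to 3. Every homozygous library held more Atp1b1 than Atp1b2, and every WT library the reverse. The log2 ratio of Atp1b1 to Atp1b2 was 1.02 ± 0.39 in homozygous and -0.86 ± 1.27 in WT muscle (SD, n = 3 each), a difference of 1.89. In an exact two-sided permutation test its p was 0.1, the smallest that 3 against 3 libraries can give, and 0.3 after Benjamini-Hochberg adjustment over the 3 subunit ratios tested. Without WT replicate 3 the difference was 1.15. WT replicate 3 was lowest and homozygous replicate 2 highest both in this share and in the summed slow-fibre markers.

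**Figure D2:**
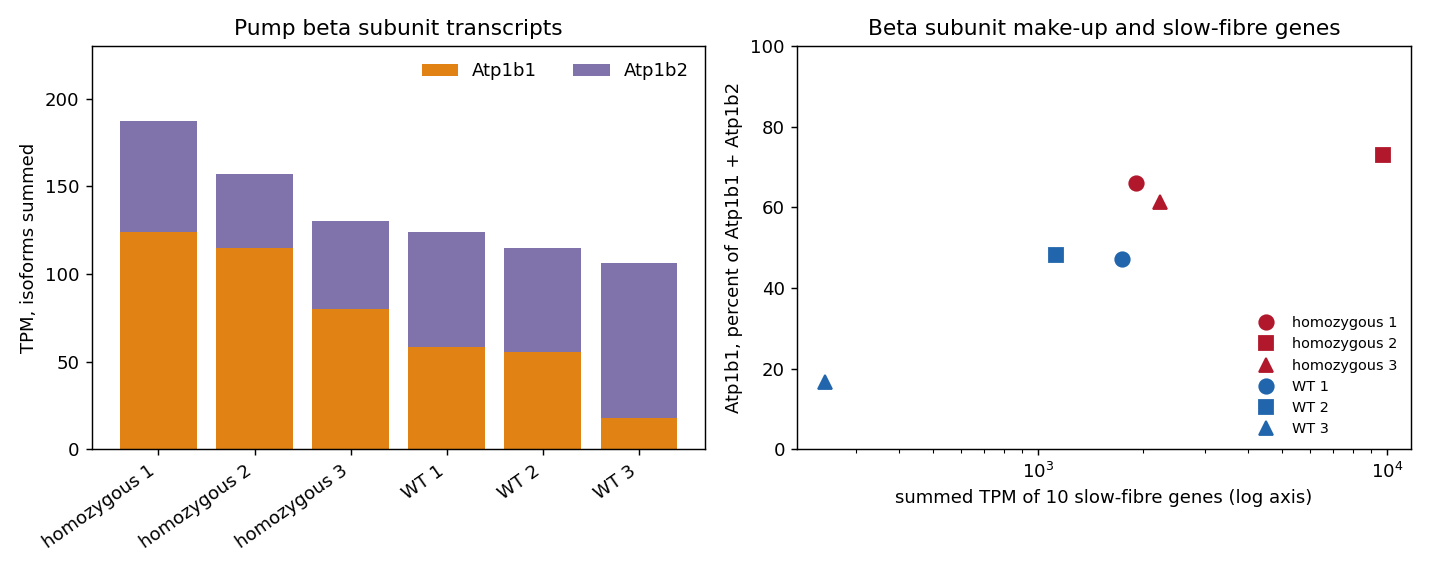
Left, stacked bars of Atp1b1 and Atp1b2 TPM in each library, on a linear axis from 0. Right, Atp1b1 as a percent of both (y axis, 0 to 100) against the summed TPM of 10 slow-fibre genes (x axis, log scale), with 1 point per library: the homozygous libraries lie between 61.3% and 73.1%, WT replicates 1 and 2 at 47.3% and 48.2%, and WT replicate 3 at 16.6%.

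The fold of Atp1b1 was larger in a short isoform than in the coding isoform. The coding Atp1b1-201 (2580 nt) was 98.4, 94.6 and 64.0 TPM in homozygous mice 1 to 3, against 53.9, 49.0 and 16.4 TPM in WT mice 1 to 3, a log2 fold change of 1.23 (SE 0.45). It was 0.70 without WT replicate 3 and 0.39 with the slow-fibre covariate. Atp1b1-204 (453 nt, annotated as a processed transcript with no coding region) was 21.2, 17.0 and 14.1 TPM in homozygous mice 1 to 3, against 4.07, 5.51 and 1.12 TPM in WT mice 1 to 3. Its log2 fold change was 2.15 (SE 0.42; limma over 21165 isoforms, adjusted p 0.226), 1.67 (SE 0.22) without WT replicate 3 and 1.52 (SE 0.48) with the slow-fibre covariate. As a share of the gene it was 17.1%, 14.9% and 17.7% against 6.95%, 9.93% and 6.31%, a difference of 8.83 percentage points. That share did not overlap between groups, at an exact permutation p of 0.1, the smallest possible, and 0.344 after adjustment over the 31 isoform shares tested. The retained-intron isoform Atp1b1-202 did not overlap either, at 1.68 to 3.11 TPM against 0.212 to 0.942 TPM.

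Atp1b1-204 starts inside the gene, at an exon of 114 nt that no other Atp1b1 isoform holds (chromosome 1, 164443606 to 164443719, minus strand). It then joins the exon that is the third of Atp1b1-201. The start of this transcript in the GENCODE M21 reference is shown because these bases alone separate it from the coding isoform at its 5′ end. Capitals mark its own exon, and the lower-case letters are the first 30 bases shared with Atp1b1-201.
Atp1b1-204: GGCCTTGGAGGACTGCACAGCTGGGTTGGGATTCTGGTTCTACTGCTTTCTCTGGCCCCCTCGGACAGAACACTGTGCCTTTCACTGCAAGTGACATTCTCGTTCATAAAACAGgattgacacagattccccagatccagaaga

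Fxyd1 (chromosome 7, 31051678 to 31057199, minus strand) encodes phospholemman, the FXYD protein that regulates the muscle pump. It was the most abundant of the 8 genes in every library, at 687, 648 and 655 TPM in homozygous mice 1 to 3, against 593, 577 and 1202 TPM in WT mice 1 to 3. The homozygous libraries lay above WT replicates 1 and 2 and below WT replicate 3. The log2 fold change was -0.17 (SE 0.28; limma, adjusted p 0.693) and turned to 0.18 (SE 0.11; limma, adjusted p 0.358) without WT replicate 3. Part of the WT spread lay in Fxyd1-213, a retained-intron isoform of 255 nt with 16 nt of its own. It was 9.72 and 18.5 TPM in homozygous mice 1 and 2 and listed at 0 in homozygous mouse 3, against 19.7, 59.5 and 270 TPM in WT mice 1 to 3. Its share of the gene was 0% to 2.85% against 3.33% to 22.5%. With that isoform left out of the sum, the log2 fold change of Fxyd1 was 0.0029 (SE 0.22). The most abundant coding isoforms, Fxyd1-212 and Fxyd1-203, had log2 fold changes of 0.04 (SE 0.25) and -0.21 (SE 0.24), which were 0.31 and 0.04 without WT replicate 3. The other 11 tested isoforms of Fxyd1 had overlapping groups. Fxyd5, another FXYD gene, was 6.75 to 9.08 TPM against 7.08 to 8.87 TPM.

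Scn4a (chromosome 11, 106318592 to 106349389 for the coding isoform, minus strand) encodes Nav1.4, the sodium channel of the fibre action potential. Summed over isoforms it was 88.5, 67.0 and 69.1 TPM in homozygous mice 1 to 3, against 60.1, 50.5 and 40.3 TPM in WT mice 1 to 3. The groups did not overlap, and the gap between the lowest homozygous and the highest WT library was smaller than the SD of either group. Homozygous muscle averaged 74.9 ± 11.8 TPM and WT muscle 50.3 ± 9.91 TPM (SD, n = 3 per group). This gave a log2 fold change of 0.57 (SE 0.18) at an adjusted p of 0.168 in limma, or 0.31 above all genes, and 0.42 (SE 0.16) without WT replicate 3.

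The Scn4a sum joins 2 rows that share 0 exonic bases. Scn4a-201, the coding isoform of 6598 nt, was 61.0, 48.0 and 51.1 TPM in homozygous mice 1 to 3, against 47.1, 42.5 and 32.8 TPM in WT mice 1 to 3. Its groups did not overlap, and the log2 fold change was 0.39 (SE 0.18; limma, adjusted p 0.342), or 0.24 without WT replicate 3. Scn4a-202, a processed transcript of 443 nt that ends 65 bases before the start of Scn4a-201 on the same strand, was 27.5, 19.0 and 18.0 TPM against 13.0, 8.07 and 7.48 TPM. Its log2 fold change was 1.11 (SE 0.26; limma, adjusted p 0.252), or 0.97 without WT replicate 3. Its share of the summed TPM was 31.0%, 28.4% and 26.1% in the homozygous and 21.7%, 16.0% and 18.6% in the WT libraries. The difference of 9.77 percentage points had an exact permutation p of 0.1, the smallest possible, and was 9.68 points without WT replicate 3.

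The promoter window of Scn4a shows this arrangement (RefSeq, GRCm38.p6, chr11:106349341-106349640, minus strand, 250 bases before to 50 after the start). Capitals mark the 186 bases that are also exon of Scn4a-202 (106349455 to 106349640), so most of the window before the Scn4a start is itself transcribed in this annotation.
Scn4a: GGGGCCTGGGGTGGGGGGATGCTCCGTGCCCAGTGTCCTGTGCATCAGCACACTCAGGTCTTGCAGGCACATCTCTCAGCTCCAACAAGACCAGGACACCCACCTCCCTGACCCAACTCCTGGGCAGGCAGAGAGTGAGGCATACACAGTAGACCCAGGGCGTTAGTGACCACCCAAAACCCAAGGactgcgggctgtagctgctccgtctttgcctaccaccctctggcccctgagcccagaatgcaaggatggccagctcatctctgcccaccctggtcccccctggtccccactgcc

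Scn4b, the gene of an accessory sodium channel subunit, was 94.5, 69.0 and 73.8 TPM against 67.7, 63.8 and 49.8 TPM. Its groups did not overlap, and the fold on the log2 scale was 0.38 (SE 0.17), with 0.219 as its adjusted p in limma. This was 0.12 above the median of all genes. The fold was 0.25 without WT replicate 3 and 0.14 (SE 0.17) after quantile normalization. Scn8a, a nerve sodium channel gene, was at most 0.238 TPM in any library and was not tested.

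Clcn1 (chromosome 6, 42286685 to 42315756, plus strand) encodes ClC-1, the main resting conductance of muscle. Its fold was the nearest to 0 of the 8 genes. It was 69.6, 61.6 and 64.8 TPM in homozygous mice 1 to 3, against 61.1, 65.3 and 76.1 TPM in WT mice 1 to 3. The groups overlapped, and the log2 fold change was -0.04 (SE 0.13; limma, adjusted p 0.842), or -0.31 relative to all genes. Without WT replicate 3 it was 0.05 (SE 0.11). The largest share of the gene lay in Clcn1-202, annotated as a processed transcript, at 46.8% to 47.5% of the gene in the homozygous and 48.8% to 56.1% in the WT libraries. The coding isoform Clcn1-201 was 24.3, 16.6 and 17.4 TPM against 17.3, 13.7 and 10.4 TPM, with overlapping groups and a log2 fold change of 0.47 (SE 0.23), or 0.30 without WT replicate 3. Clcn1-203 and Clcn1-205, both annotated for nonsense-mediated decay, and the retained-intron Clcn1-209 also overlapped. The chloride importer gene Slc12a2 was 18.8, 17.7 and 16.3 TPM against 17.5, 17.2 and 7.86 TPM.

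**Figure D3:**
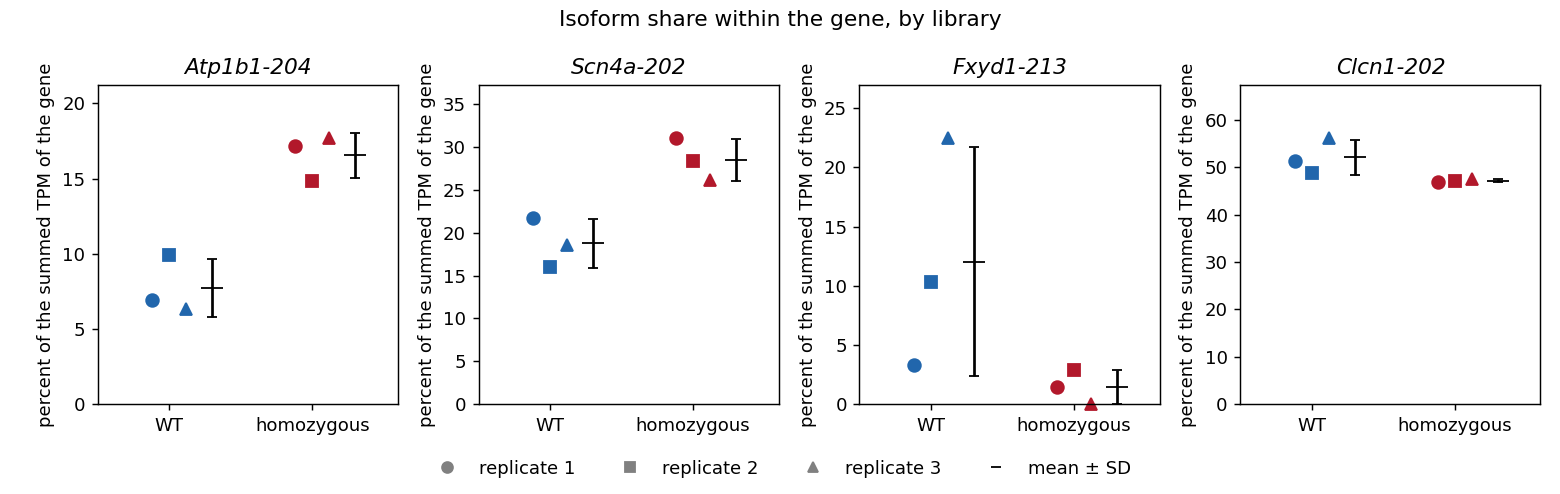
Share of the gene's summed TPM held by Atp1b1-204, Scn4a-202, Fxyd1-213 and Clcn1-202 (y axis, percent, linear from 0) in WT and homozygous libraries, with 1 symbol per replicate and the mean ± SD. None of the 4 shares overlaps between groups: Atp1b1-204 and Scn4a-202 are higher and Fxyd1-213 and Clcn1-202 lower in the homozygous libraries.

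Over the 8 genes, 32 of 50 isoform rows were tested and 2 were at 0 in all libraries. None passed (0 of 32; limma, smallest adjusted p 0.226), against 0.0425% of all isoforms. At an unadjusted p under 0.05 in limma, 6 were higher and 1 was lower, against 14.2% and 1.52% of all isoforms. The homozygous libraries lay above in 7 and below in 1, against 25.6% and 2.11%. Of the 31 isoform shares in the 7 genes with at least 2 tested isoforms, 9 did not overlap between groups (29.0%), against 19.1% of such shares in the table. The homozygous libraries were above in 5 and below in 4, against 10.2% and 8.98%. Shares within a gene depend on each other, and the sources used here do not state how reads were divided between isoforms.

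Kcnj11 and Abcc9 encode the pore Kir6.2 and the receptor SUR2 of the muscle ATP-sensitive potassium channel, and both had higher values in the homozygous libraries. Kcnj11 (chromosome 7, 46093953 to 46100764, minus strand) was 49.6, 74.4 and 93.6 TPM in homozygous mice 1 to 3, against 42.3, 44.2 and 45.4 TPM in WT mice 1 to 3. The WT libraries lay close together, and homozygous replicate 1 was only just above them. Homozygous muscle averaged 72.5 ± 22.1 TPM and WT muscle 44.0 ± 1.54 TPM (SD, n = 3 per group). This gave a log2 fold change of 0.66 (SE 0.22) at an adjusted p of 0.169 in limma, or 0.40 above all genes. It was 0.69 (SE 0.25) without WT replicate 3 and 0.62 (SE 0.30) with the slow-fibre covariate. After quantile normalization it was 0.44 (SE 0.22), and with median centring 0.36 (SE 0.22). Kcnj11 was the gene of the 8 that passed with array weights, which weigh each library by its fit (limma, adjusted p 0.0465), as did 7.3% of all genes tested. The coding isoform Kcnj11-205 held 86.8% to 92.5% of the gene in all libraries and had a log2 fold change of 0.64 (SE 0.23), and Kcnj11-203 had 0.39 (SE 0.34), or 0.62 without WT replicate 3.

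Abcc9 (chromosome 6, 142587862 to 142702315, minus strand) was 30.8, 35.8 and 37.0 TPM in homozygous mice 1 to 3, against 24.7, 28.8 and 18.1 TPM in WT mice 1 to 3. The groups did not overlap. Homozygous muscle averaged 34.6 ± 3.30 TPM and WT muscle 23.9 ± 5.42 TPM (SD, n = 3 per group). This gave a log2 fold change of 0.53 (SE 0.18) at an adjusted p of 0.171 in limma, or 0.27 above all genes. It was 0.36 (SE 0.13) without WT replicate 3 and 0.25 (SE 0.20) with the slow-fibre covariate. Abcc9 is also known in vascular smooth muscle and pericytes. Of the 7 markers of those cells, 4 lay higher in all homozygous libraries and 3 overlapped between groups, and their part in the result was not tested. The isoform Abcc9-204 held 76.3% to 96.8% of the gene, with overlapping shares. Abcc9-203 was 2.43, 2.99 and 2.33 TPM against 1.87, 0.446 and 0.647 TPM, and Abcc9-201 was 1.26, 5.48 and 3.24 TPM against 0.273, 0.408 and 2.58 TPM.

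The ratio of pore to receptor overlapped between groups. Kcnj11 was 1.61, 2.08 and 2.53 times Abcc9 in the homozygous and 1.71, 1.53 and 2.51 times in the WT libraries. The difference in log2 ratio was 0.12 with an exact permutation p of 0.7 and an adjusted p of 1.0, and the small design leaves larger differences possible. The other pore gene, Kcnj8 (Kir6.1, the vascular form), was 5.52, 5.32 and 4.37 TPM against 4.49, 2.53 and 3.32 TPM. The log2 ratio of Abcc9 to Kcnj8 differed by -0.03, at an exact permutation p of 1.0. The other receptor gene, Abcc8 (SUR1), was 1.35, 3.48 and 4.55 TPM against 0.934, 1.01 and 2.12 TPM, with overlapping groups. Kcnj11 made up 90.0% to 95.5% of Kir6 TPM and Abcc9 89.0% to 96.6% of SUR TPM over all libraries.

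Kcnj2 (chromosome 11, 111066164 to 111076821, plus strand) encodes Kir2.1 and has 1 isoform row. It was the least abundant of the 8, at 9.93, 7.11 and 5.33 TPM in homozygous mice 1 to 3, against 8.09, 5.51 and 2.75 TPM in WT mice 1 to 3. The groups overlapped. The log2 fold change was 0.45 (SE 0.34; limma, adjusted p 0.396) and 0.10 (SE 0.25) without WT replicate 3. Kcnj12, the gene of the related Kir2.2, was higher in level, at 18.7 to 19.8 TPM against 16.3 to 16.6 TPM. Its groups did not overlap, but its log2 fold change of 0.23 (SE 0.12) lay below the median of all genes and was -0.06 after quantile normalization.

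**Figure D4:**
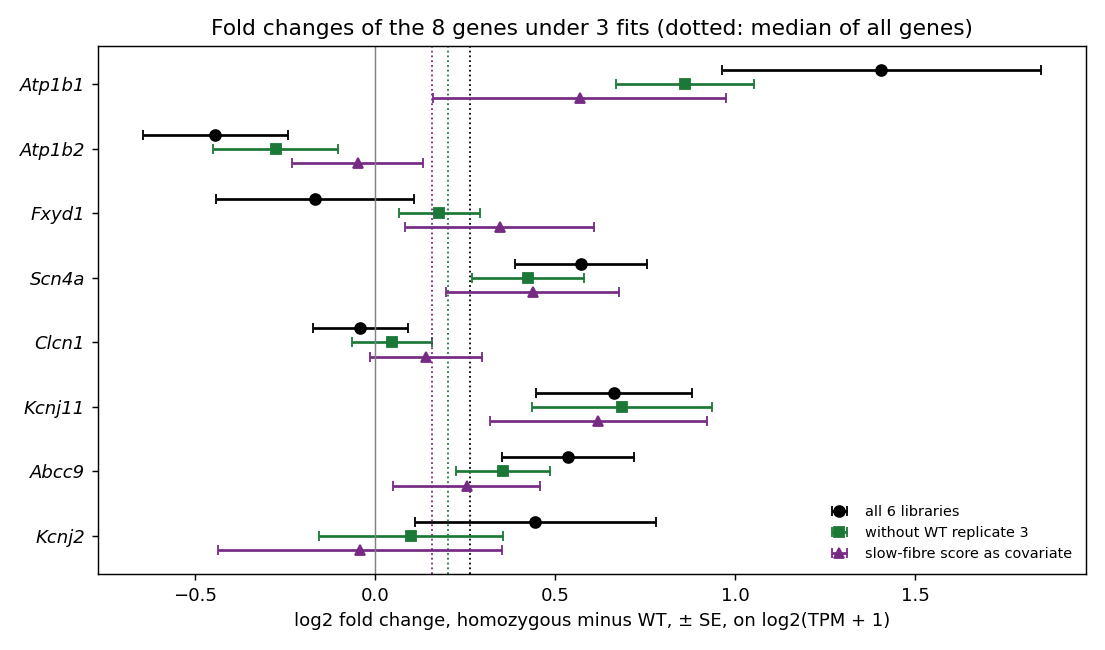
Log2 fold change on log2(TPM + 1), homozygous minus WT, with SE bars, for each of the 8 genes (rows) in 3 limma fits: all 6 libraries, without WT replicate 3, and with a slow-fibre score as covariate. Dotted lines are the median of all genes in each fit. The slow-fibre score itself did not overlap between groups. Kcnj11 keeps nearly the same fold in these 3 fits (0.66, 0.69 and 0.62), while Atp1b1 goes from 1.41 to 0.86 and 0.57. After quantile normalization, not drawn, Kcnj11 was 0.44 and Atp1b1 1.15.

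TPM is scaled per transcript length, so levels can be set side by side. The order of the 8 genes, by TPM summed over coding and other isoforms, was not the same in the groups. In WT muscle the means ran from Fxyd1 (791 TPM) over Atp1b2 (71.2), Clcn1 (67.5), Scn4a (50.3), Kcnj11 (44.0), Atp1b1 (43.9) and Abcc9 (23.9) to Kcnj2 (5.45). In homozygous muscle the order was Fxyd1 (663 TPM), Atp1b1 (106), Scn4a (74.9), Kcnj11 (72.5), Clcn1 (65.4), Atp1b2 (52.0), Abcc9 (34.6) and Kcnj2 (7.46). Atp1b1 was thus at rank 6 in WT and rank 2 in homozygous muscle, and Atp1b2 at rank 2 and rank 6. The WT ranks rest on WT replicate 3: without it Atp1b1 (57.0 TPM) was at rank 4, and Clcn1 (63.2 TPM) and Atp1b2 (62.4 TPM) were at ranks 2 and 3. In WT muscle the neighbours Atp1b2 and Clcn1, Scn4a and Kcnj11, Kcnj11 and Atp1b1, and Atp1b1 and Abcc9 differed by less than the SD of at least 1 gene of the pair. In homozygous muscle this held for Scn4a and Kcnj11 and for Kcnj11 and Clcn1. The rank of Clcn1 rests on isoforms not annotated as protein coding. Its coding isoform Clcn1-201 averaged 13.8 TPM in WT and 19.4 TPM in homozygous muscle. The coding isoform Abcc9-204 was above it in both, at 21.8 and 28.6 TPM.

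A list of 56 other genes of pumps, sodium, chloride and potassium channels, calcium extrusion and their regulators was read beside the 8. It was chosen with earlier results of these data known, so its counts beside those of all genes are only a description. All 56 were in the table and 38 were tested. None passed (limma, 0 of 38, smallest adjusted p 0.168). With array weights 8 of 38 passed, Kcna7 and Abcc8 among them, against 7.3% of all genes. At an unadjusted p under 0.05 in limma, 15 were higher and 0 lower, against 23.7% and 0.55% of all genes. Groups did not overlap for 20, all with the homozygous libraries above, against 34.7% of all genes. The median log2 fold change was 0.46 against 0.26 for all genes, and 0.19 against -0.01 after quantile normalization. By role, the genes with groups that did not overlap were 3 of 6 tested pump genes, 2 of 3 sodium channel genes, 4 of 6 chloride genes, 0 of 2 ATP-sensitive channel genes, 5 of 9 potassium channel genes, 3 of 6 calcium and exchanger genes and 3 of 6 regulators. The smallest p-value of the list was that of Kcna7. This voltage-gated potassium channel gene of muscle was 57.8, 61.3 and 61.4 TPM in homozygous mice 1 to 3, against 40.6, 38.6 and 29.8 TPM in WT mice 1 to 3 (log2 fold change 0.72, SE 0.15; limma, adjusted p 0.168). Folds were positive for 36 of the 38 and negative for 2, against 9526 positive and 1573 negative of all 11099 genes. After quantile normalization they were positive for 26 and negative for 12 of the 38, against 5422 and 5677 of all genes. Sgk1, a glucocorticoid-induced kinase gene that acts on pumps and channels, was 70.9, 64.8 and 69.1 TPM against 66.9, 82.3 and 125 TPM, with overlapping groups and -0.37 as the log2 fold (SE 0.22; limma, adjusted p 0.30), or -0.12 without WT replicate 3.

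Promoter windows of 300 bases were found by symbol for 6 of the 8 genes in the RefSeq table, and Atp1b2 and Kcnj11 had no entry. Both strands were searched for motifs. The glucocorticoid receptor palindrome, an inverted pair of half-sites with 3 bases between them, was in 0 of the 6 windows and in 0.475% of all 32851 windows. The glucocorticoid receptor hexamer AGAACA was in 1 (Clcn1), against 19.0% of all windows. The MEF2 motif, bound by a muscle transcription factor family, was in 2 (Abcc9 and Clcn1), against 3.19%. The E-box CANNTG was in 3 (Abcc9, Clcn1 and Kcnj2), against 72.3%, and the M-CAT motif CATTCC in 1 (Abcc9), against 14.7%. Such a match is a description of the letters, not a binding site. The windows with MEF2 matches are shown with those 10 bases in capitals. In Clcn1 the AGAACA match is also in capitals, nearer the 5′ end. The Abcc9 window is chr6:142702225-142702524, minus strand, and the Clcn1 window is chr6:42286435-42286734, plus strand (GRCm38.p6). Of this pair, Abcc9 was among the 4 genes with non-overlapping groups and Clcn1 was not.
Abcc9: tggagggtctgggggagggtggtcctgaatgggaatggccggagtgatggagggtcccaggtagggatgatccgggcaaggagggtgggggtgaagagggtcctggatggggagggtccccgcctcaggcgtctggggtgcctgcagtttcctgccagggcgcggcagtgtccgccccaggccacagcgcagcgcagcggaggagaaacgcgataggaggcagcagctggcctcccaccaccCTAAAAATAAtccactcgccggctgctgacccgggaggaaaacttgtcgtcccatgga
Clcn1: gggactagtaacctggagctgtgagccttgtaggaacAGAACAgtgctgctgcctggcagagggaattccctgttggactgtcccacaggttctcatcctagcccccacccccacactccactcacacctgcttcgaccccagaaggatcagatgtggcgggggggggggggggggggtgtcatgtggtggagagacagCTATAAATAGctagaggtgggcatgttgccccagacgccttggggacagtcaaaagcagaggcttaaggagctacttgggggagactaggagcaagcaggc

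The tested genes most like each of the 8 were found by Pearson's r of log2(TPM + 1) over the 6 libraries. With 6 points that share library and scaling, high values are common: 599 of 11091 genes had r over 0.95 with Atp1b1 and 860 with Abcc9. The values are therefore only a description. Atp1b1 was most like Phlpp1, Adcy9 and Txndc16 (r 0.997 to 0.999), and Atp1b2 most like Lrrc38, Mlf1 and Mrln (0.979 to 0.983). Fxyd1 was most like Nrtn, Cnbd2 and P3h1 (0.995 to 0.998), and Scn4a most like Cnnm3, Poc1b and Pitpnc1 (0.995 to 0.996). Clcn1 was most like Gm5559, Asph and Fscn2 (0.980 to 0.997), and Kcnj11 most like Gm15500, 1700011I03Rik and Panx1 (0.992 to 0.997). Abcc9 was most like Hars2, Tubgcp4 and Wdr26 (0.997 to 0.998), and Kcnj2 most like Ascc3, Acads and Sirt5 (0.993 to 0.996).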

How the data were processed

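Quadriceps RNA of 3 homozygous and 3 WT mice was measured by poly-A selected, stranded RNA-seq, per the labels' protocols. The authors deposited TPM per transcript, with 1 column per library, per the file headers. FastQC, Trimmomatic, HISAT2 and kallisto and the build mm10 are listed in the submitters' processing notes. The sources used here do not state their roles, settings or the annotation release. TPM carries no depth, so depth is unknown and no counting intervals are given. All 6 columns matched a library by title.

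TPM was summed per gene and tested as log2(TPM + 1) for genes that reached 1 TPM in 3 or more libraries (limma 3.58.1, R 4.3.3, trend and robust, genotype as only term, Benjamini-Hochberg adjustment, threshold 0.05). Folds on this scale understate the change of low genes. Isoform rows were treated in the same way. Shares and ratios were compared by exact permutation of libraries. All 50 transcript rows matched GENCODE M21 (GRCm38), the source of positions and lengths, and promoters came from RefSeq (GRCm38.p6). On simulated data of 11099 genes, the test recovered 0%, 34% and 92% of 200 genes changed by 0.5, 1 and 2 on the log2 scale. The simulated noise was independent between genes and libraries, with no outlying library and no shift of all genes. These rates therefore need not hold for the real libraries. The members and lists were chosen with earlier results of these data known. The rule for named genes took all 8 genes, fixed partners, the 3 listed genes with the smallest p in each direction, the 3 genes most like each of the 8, Nr3c1 and all tested isoforms, of which those of Fxyd1 beyond the 3 most abundant are given as a count. Some genes that this rule selects are not reported here. Alternatives were quantile normalization, median centring, no filter, a pseudocount of 0.1, a replicate block, array weights, a slow-fibre covariate and leaving out each library.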

Additional observations from a re-analysis of the deposited data

How the results depend on the processing

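Over all genes 0 passed, and 810 did with array weights, among them 1 of the 8 genes (Kcnj11). Those weights were 0.199 for WT replicate 3, the lowest, and 2.50 for WT replicate 1, the highest. When single libraries were dropped, 0 to 2 genes passed (2 without WT replicate 1, 1 without WT replicate 2), and 0 of the 8. Under all other alternatives the counts over all genes, the 8 genes and their isoforms stayed 0. Atp1b1, Atp1b2, Scn4a, Kcnj11 and Abcc9 kept their direction under all 13 other settings, with log2 fold changes of 0.57 to 1.70, -0.75 to -0.05, 0.27 to 0.71, 0.36 to 0.91 and 0.23 to 0.68 and adjusted p in limma of 0.067 to 0.762, 0.097 to 0.953, 0.119 to 0.753, 0.0465 to 0.753 and 0.0503 to 0.771. Directions changed for the genes and isoforms below, among them Kcnj2, whose fold was as large as that of Atp1b2, and the cause was not tested. With quantile normalization Fxyd5 was -0.26, Kcnj12 -0.056 and Fxyd1-212 -0.076. With median centring they were -0.27, -0.074 and -0.23. With array weights Fxyd1 was 0.10, Clcn1 0.032, Kcnj2 -0.025, Fxyd5 -0.030 and Clcn1-205 0.073. With the slow-fibre covariate Fxyd1 was 0.35, Clcn1 0.14, Kcnj2 -0.042, Slc12a2 -0.13, Sgk1 0.051, Fxyd1-203 0.22, Clcn1-202 0.074, Clcn1-205 0.87 and Clcn1-209 0.21. With Fxyd1-213 left out, an alternative chosen after seeing the data, Fxyd1 was 0.0029. Leaving out each library gave ranges of log2 fold change across 0 for Fxyd1 (-0.35 to 0.18), Clcn1 (-0.11 to 0.047), Fxyd5 (-0.039 to 0.15), Atp1b2-202 (-0.30 to 0.055), Clcn1-205 (-0.53 to 0.41), Clcn1-209 (-0.47 to 0.087), Fxyd1-203 (-0.36 to 0.044) and Fxyd1-212 (-0.19 to 0.31). It gave shares, in percentage points, of -3.21 to 0.608 for Atp1b2-201, -1.15 to 1.53 for Clcn1-205, -3.85 to 0.382 for Clcn1-209, -1.94 to 0.679 for Fxyd1-203, -3.01 to 0.415 for Kcnj11-203 and -2.45 to 0.366 for Kcnj11-205. The log2 ratio difference ran from -0.036 to 0.33 for Kcnj11 to Abcc9 and from -0.22 to 0.32 for Abcc9 to Kcnj8, and the latter was 0.07 with 1 TPM added to both genes. With the replicate number as a block, 0 genes passed, among them 0 of the 8, and the Atp1b1 log2 fold change of 1.41 had an adjusted p of 0.205 in limma. The block lowered the SE from 0.44 to 0.24 for Atp1b1 and from 0.34 to 0.19 for Kcnj2. It raised the SE from 0.13 to 0.16 for Clcn1 and from 0.18 to 0.19 for Abcc9. Across all genes, libraries with the same number deviated from their group means with correlations of -0.07, 0.06 and -0.01. Over all genes together the numbers thus give no sign of a pairing, and single genes can differ.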

Other observations

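Fxyd6, another FXYD regulator gene of the pump, was chosen after its values were seen. It was 54.0, 50.1 and 33.1 TPM in homozygous mice 1 to 3, against 32.7, 25.5 and 6.62 TPM in WT mice 1 to 3. The groups did not overlap, homozygous replicate 3 lay just above WT replicate 1, and the log2 fold change was 1.27 (SE 0.54; limma, adjusted p 0.206). It was 0.62 without WT replicate 3 and 0.24 with the slow-fibre covariate. The voltage-gated potassium channel genes Kcnc1 and Kcnc4, also chosen after their values were seen, were 9.80 to 10.5 TPM against 5.17 to 8.52 TPM and 17.0 to 28.4 TPM against 13.3 to 14.3 TPM. Their log2 fold changes were 0.63 (SE 0.19) and 0.62 (SE 0.19), both at 0.168 as limma adjusted p. Relative to the median of all genes the folds were 0.36 and 0.36, and after quantile normalization they were 0.35 and 0.34. With the slow-fibre covariate Kcnc1 was 0.94, higher than without it, and Kcnc4 was 0.59. Both passed with array weights (limma, adjusted p 0.0396 and 0.0487), as did 7.3% of all genes tested.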
